A study of Homo sapiens with 4 samples.

Results

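DNA transposons held 451 of the 22702 regions at which TBX3 was found in both ChIP samples of a human melanoma line (1.99%, 95% Wilson interval 1.81% to 2.18%). A region was included when its replicate 1 summit was annotated to repeat class DNA and its nearest replicate 2 summit, nearest in both directions, lay within 200 bp. The replicate 1 list held 621 such summits among 32479 peaks, of which 451 had a partner, and the replicate 2 list held 887 among 40494 peaks. The regions fell into 14 annotated families and 118 element names, of which 48 names occurred a single time. The study profiled TBX3 carrying a triple HA tag (TBX3-3xHA) in 501mel, an established melanoma cell line grown in medium with serum. The tagged protein was recovered with the anti-HA antibody 12CA5 in 2 samples, and 2 input samples of the same line, taken without immunoprecipitation, were not analysed here. The labels name no further genotype or treatment, and how much tagged protein the cells held beside their own TBX3 is not given in the sources used here. Nothing in the labels says whether the ChIP samples came from separate cultures, so the differences between lists may be technical.

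DNA transposons are mobile elements that moved as DNA, cut out and pasted elsewhere by a transposase that binds the inverted repeats at their ends. Human copies are old, no longer move, and are mostly short internally deleted elements, many of them named MER. The hAT superfamily includes the Charlie and Tip100 families, and the TcMar superfamily includes the Tigger elements, which are related to the pogo transposon and to the centromere protein CENPB, as well as the mariners. TBX3 is a T-box factor, known mainly as a repressor of transcription and of senescence, and T-box proteins bind sequences built on the core AGGTGT.

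Sequence could be shown for 2 regions, the only ones of the 451 with a summit inside a RefSeq promoter window, which spans 250 bases before to 50 bases after the start of a gene (build GRCh38.p14). They were chosen after their values were seen, and each window shows the letters around 1 of the 2 summits of its region. Capitals mark the T-box core AGGTGT on either strand, and the start of each sequence is the lower coordinate. The OldhAT1 region, an hAT-Ac element with a replicate 1 summit at 219555412, lay in the window of LOC124904514 (chr1:219555150-219555449, plus strand), and its replicate 2 summit at 219555459 lay just beyond the window. That replicate 2 summit was annotated to no repeat. In the deposited annotation the OldhAT1 region lay in an intron, 1912 bp from the start of LOC102723886. The MER5A1 region, of family hAT-Charlie, had its replicate 2 summit at 120145684 in the window of LOC105374065 (chr3:120145414-120145713, plus strand), with the replicate 1 summit at 120145765 beyond it. The replicate 1 base, whose annotation placed the region in MER5A1, is therefore not in the sequence shown. That annotation called the region intergenic, at a signed distance of -51348 bp from the start of GSK3B. By the deposited annotation, which is used elsewhere here, neither region was therefore at a promoter. The extent of each element within its window was not given, so which of the letters belong to the element is not known.
OldhAT1: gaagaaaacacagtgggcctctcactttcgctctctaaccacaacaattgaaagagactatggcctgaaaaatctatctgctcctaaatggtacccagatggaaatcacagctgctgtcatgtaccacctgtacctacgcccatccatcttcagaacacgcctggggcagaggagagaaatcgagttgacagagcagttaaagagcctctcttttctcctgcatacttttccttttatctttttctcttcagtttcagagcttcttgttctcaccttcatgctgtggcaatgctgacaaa
MER5A1: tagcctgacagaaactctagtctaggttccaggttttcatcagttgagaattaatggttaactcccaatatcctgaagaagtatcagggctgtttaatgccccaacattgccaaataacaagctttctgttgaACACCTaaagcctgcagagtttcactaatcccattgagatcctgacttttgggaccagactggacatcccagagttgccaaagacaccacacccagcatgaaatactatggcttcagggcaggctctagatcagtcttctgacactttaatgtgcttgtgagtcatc

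The OldhAT1 window held no match to the T-box core or to the other motifs searched on both strands. Those were the longer T-box sequence AGGTGTGA, which contains the core, E-boxes (CATGTG and CACGTG, the type bound by MITF), AP-1 (TGANTCA), SOX (ACAAAG and ACAATG) and TEAD (GGAATG). The MER5A1 window held 1 match to the T-box core, starting 137 bp before the replicate 2 summit and 218 bp before the replicate 1 summit, and 1 match to AP-1, starting 21 bp after the replicate 2 summit. Among 35116 RefSeq promoter windows of the same length, 11.4% held the T-box core, 7.71% the AP-1 motif and 0.980% the longer T-box sequence. The E-boxes CATGTG and CACGTG stood in 11.1% and 7.26% of windows, the SOX motifs ACAAAG and ACAATG in 16.1% and 10.8%, and TEAD in 14.0%. The OldhAT1 region had scores of 53.2 in replicate 1 and 53.5 in replicate 2, and the MER5A1 region had scores of 26.0 and 9.09.

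The class took up 1.91% of peaks in the first list and 2.19% in the other (mean 2.05% ± 0.197, SD, n = 2). Among shared regions the class was smaller than satellites (3773 regions, 16.6% of all shared regions), LTR elements (2391), LINEs (1604) and SINEs (978). No count of the elements in the genome was used, so these shares say nothing of enrichment. The deposited annotation gave a repeat name to summits in introns or intergenic sequence, or on sequences without gene annotation. A summit that this annotation placed in a promoter or exon was therefore never counted as class DNA. At 395 regions the replicate 2 summit was also annotated to class DNA, at 393 of them to the same element name. At the other 56 regions the replicate 2 summit lay in no repeat (44), a SINE (6), a LINE (4) or an LTR element (2). Those summits were farther apart, with a median of 66 bp against 27 bp where both carried class DNA. Because a partner within 200 bp was part of the rule, 15 regions lay just inside it, 151 to 200 bp apart, with a median replicate 1 score of 7.12. Just outside, 5 class DNA summits had a mutually nearest partner at 201 to 250 bp, the closest at 219 bp, with a median replicate 1 score of 10.0.

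TcMar-Tigger and hAT-Charlie elements together held most of the regions. TcMar-Tigger held 190 regions under 33 element names (42.1%, 95% Wilson interval 37.7% to 46.7%) and hAT-Charlie held 171 under 44 names (37.9%, 33.6% to 42.5%). The Tip100 branch of hAT held 39 regions (8.65%, 6.39% to 11.6%). Elements annotated to family DNA with no further placement held 11, TcMar-Mariner 11, hAT-Ac 8 and hAT-Blackjack 7. The 7 remaining families held 14 regions between them, and 4 of these families carry a question mark in their name. In the lists taken alone the order of the leading families was the other way round. There hAT-Charlie held 40.4% ± 0.426 of class DNA peaks (SD, n = 2) and TcMar-Tigger 37.3% ± 0.357. The lists share most of the replicate 1 summits, so this SD is no independent error, and the order of these families was not tested.

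**Figure D1:**
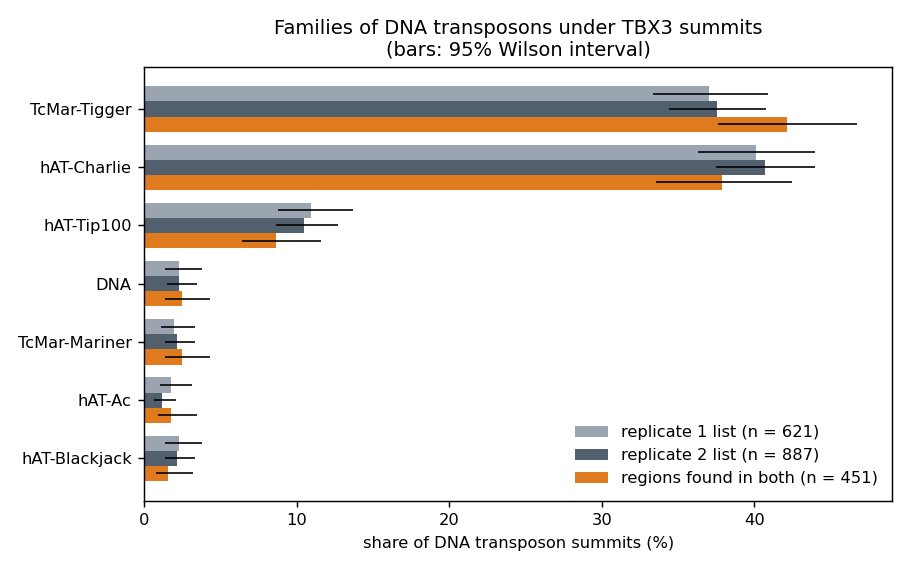
Share of class DNA summits (%) in each family with at least 7 shared regions, for all 621 summits of the replicate 1 list, all 887 of the replicate 2 list and the 451 shared regions; lines are 95% Wilson intervals. TcMar-Tigger rises from 37.0% and 37.5% in the lists to 42.1% of shared regions, and hAT-Charlie falls from 40.1% and 40.7% to 37.9%.

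Tigger summits were found again in the other sample more often than Charlie or Tip100 summits. In replicate 1, 190 of 230 TcMar-Tigger summits had a partner (82.6%, 77.2% to 87.0%), against 171 of 249 for hAT-Charlie (68.7%, 62.7% to 74.1%) and 39 of 68 for hAT-Tip100 (57.4%, 45.5% to 68.4%). In replicate 2 the shares were 61.3% (55.9% to 66.3%), 49.3% (44.2% to 54.4%) and 41.9% (32.4% to 52.1%). Over the whole class the shares were 72.6% in replicate 1 and 53.1% in replicate 2. Peaks outside repeats had 71.8% and 57.6%, and satellite peaks 75.3% and 66.1%, while LTR, LINE and SINE peaks had lower shares than the class. Split by score into steps of 10% of each list, class DNA peaks exceeded other peaks at 6 steps in replicate 1 and 3 in replicate 2. The intervals of Tigger and Charlie did not overlap in either list, and those of Charlie and Tip100 overlapped in both. The paired summits of the 2 lists are largely the same pairs, so the second list is no separate support. Scores moved with this order. The deposited peak score, whose scale is not stated, was read only as a percentile within its list. That is its rank from the lowest score, with ties at their mean rank, as a percentage of the peaks of the list. Over all class DNA summits, paired or not, the median percentile was 57.2 and 57.8 for TcMar-Tigger in replicates 1 and 2, 43.8 and 43.5 for hAT-Charlie, and 42.2 and 41.0 for hAT-Tip100. Among summits scoring at or above the median of their list, the shares with a partner were higher in each family. There they were 97.0% (92.5% to 98.8%) for Tigger and 94.6% (88.8% to 97.5%) for Charlie in replicate 1, and 86.3% (80.8% to 90.4%) and 83.8% (77.1% to 88.8%) in replicate 2. For Tip100 they were 87.9% (72.7% to 95.2%) and 76.5% (60.0% to 87.6%). Below the median in replicate 1 they were 63.3% (53.4% to 72.1%) for Tigger, 47.4% (39.3% to 55.8%) for Charlie and 28.6% (16.3% to 45.1%) for Tip100, and the intervals of Tigger and Tip100 did not overlap. Below the median in replicate 2 the intervals of all 3 overlapped, at 18.5% to 32.9%, 18.4% to 29.9% and 13.4% to 34.1%. Without Tigger1, the most frequent name, TcMar-Tigger summits had a partner in 80.4% of cases in replicate 1 and 60.6% in replicate 2. These shares rest on the pairing that chose the regions and carry no test. Overlap or separation of their intervals is description only, since summits are not replicates.

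**Figure D2:**
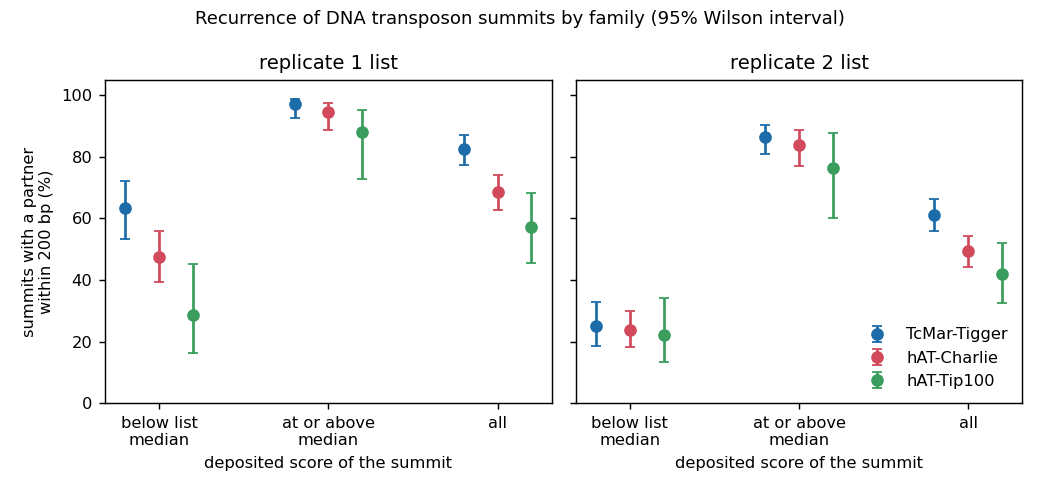
Share of class DNA summits with a partner within 200 bp in the other list (%), for the 3 largest families, split at the median score of the list; points are shares and lines 95% Wilson intervals. In both lists Tigger is highest over all scores (82.6% and 61.3%) and the families lie within overlapping intervals among summits at or above the median.

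In score the regions lay above the middle of both lists. The replicate 1 score reached 594, with quartiles of 10.0 and 39.5 and a median of 19.3, against 12.4 for the whole list. The replicate 2 score reached 785, with quartiles of 15.6 and 69.3 and a median of 31.3, against 13.9 for the whole list. The median percentile was 63.6 in replicate 1 (95% interval from order statistics 61.3 to 66.1) and 72.5 in replicate 2 (70.5 to 75.1). Shared regions outside the class had medians of 63.6 and 70.5, so their replicate 1 median was equal and the replicate 2 median lay at the lower end of that interval. These regions are a mixture. Those outside repeats had higher medians than the class, 65.5 and 74.0, and LTR, LINE and SINE regions had lower ones in both lists. Satellite regions had 64.9 and 61.2. The 10% of each list with the highest scores held 63 of the regions in replicate 1 (14.0%) and 91 in replicate 2 (20.2%), beside 15.8% and 21.4% of shared regions outside repeats. Both lists placed 60 regions there (13.3%, 10.5% to 16.8%), beside 12.4% of the shared regions outside the class. By family, 34 of 190 TcMar-Tigger regions (17.9%) stood in the top 10% of both lists, against 14 of 171 for hAT-Charlie (8.19%) and 3 of 39 for hAT-Tip100 (7.69%). The percentile was higher in replicate 2 at 362 regions and lower at 89. Outside the class the median was also higher in replicate 2 (70.5 against 63.6), so the shift is not particular to these regions. The same count was not made outside the class.

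**Figure D3:**
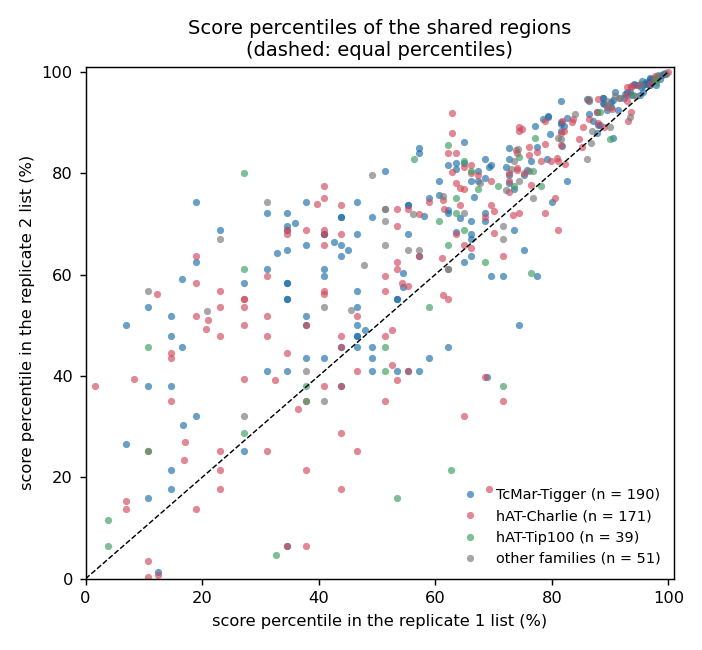
Score percentile (%) of each of the 451 regions in the replicate 1 list (x) and the replicate 2 list (y), coloured by family; the dashed line marks equal percentiles. Points close on the line at the upper right, where 60 regions are in the top 10% of both lists, and 362 points lie above it.

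The strongest region lay in a MER20 element, an hAT-Charlie name, on chromosome 2 with summits at 8879661 and 8879670 in hg38. It ranked 14 of 32479 in replicate 1 with a score of 594 and 3 of 40494 in replicate 2 with a score of 785. The element lies in intron 6 of 12 of MBOAT2, which encodes a membrane-bound acyltransferase, and the nearest start site is that of KIDINS220, 42022 bp away. Next came an Eulor9C element on chromosome 5 (summits 88046140 and 88046173), 222739 bp from the start of TMEM161B in intergenic sequence, with scores of 356 and 494. Eulor elements belong to a set of very old repeats found across vertebrates, and this copy was labelled class DNA in replicate 1 and no repeat in replicate 2. The third was MER63A, an hAT-Blackjack element on chromosome 10 (29008071 and 29008187), with scores of 316 and 513, whose summits were 116 bp apart and whose replicate 2 summit also lay outside any repeat. These 2 are the only regions among the 15 with the lowest rank sums whose replicate 2 summit lost the label.

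Tigger elements supplied 6 of those 15 regions, if MER44B, a short relative in the same family, is counted. MER44B on chromosome 18 (42193057 and 42193062) lay in intron 1 of the non-coding gene LINC00907, with scores of 314 and 468. Tigger14a on chromosome 1 (201335433 and 201335403) lay 42267 bp from the start of TNNT2, which encodes cardiac troponin T, with scores of 266 and 471. Tigger4 in intron 3 of WIPF3 on chromosome 7 (29877333 and 29877344), a gene of the actin cytoskeleton, had scores of 223 and 304. Tigger2 in intron 20 of BICC1 on chromosome 10 (58826866 and 58826923), which encodes an RNA-binding protein, had 177 and 311. The Tigger17a and Tigger17c elements on chromosome 15 stood apart as a pair. Their replicate 1 summits at 43622604 and 43722358 were 99754 bp apart, at 3804 bp upstream of the start of STRC and 4098 bp upstream of that of STRCP1, its pseudogene. STRC encodes stereocilin of the inner ear, and the gene and pseudogene are near-identical tandem copies. The scores were 253 and 407 at STRC and 197 and 364 at STRCP1. Reads from such copies can be assigned to either, and how the authors handled them is not given in the sources used here.

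The other regions among the 15 came from other families. UCON8 on chromosome 1 (101509529 and 101509526), of family DNA and also a very old repeat, had scores of 197 and 414 and lay 185692 bp from the start of LINC01307. MER1A in intron 3 of CNTN6 on chromosome 3 (1275744 and 1275730), which encodes the neural adhesion protein contactin-6, had 177 and 351. A second MER20 on chromosome 7 (152909879 and 152909854), 150130 bp from the start of ACTR3B, an actin-related protein gene, had 194 and 315. MER91C in intron 1 of PLXNC1 on chromosome 12 (94164542 and 94164547), a semaphorin receptor gene, had 185 and 298. Zaphod in intron 1 of MAPK4 on chromosome 18 (50615118 and 50615114), an atypical MAP kinase gene, had 185 and 250. Both of these are hAT-Tip100 elements. MER102b, a Charlie element on chromosome 8 (9225092 and 9225099), had 167 and 290, 36093 bp from the start of LOC101929128. Summits at these 6 regions differed by at most 25 bp between replicates.

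Among the 11 element names with at least 10 regions, which together held 175 regions, 3 Tigger names had the highest median percentiles in replicate 1. In replicate 2, MER44B, at 75.1, lay between Tigger2 and Tigger7. Tigger17a had a median percentile of 88.8 in replicate 1 and 92.4 in replicate 2 over 13 regions, and 6 of them were in the top 10% of both lists. Tigger2 had medians of 83.8 and 88.2 over 14 regions, with 5 in the top 10% of both. Tigger7 had medians of 72.7 and 74.4 over 15 regions, also with 5 in the top 10% of both. Within a name the scores spread widely. The Tigger17a regions ran from percentile 19.0 to 98.9 in replicate 1 and from 32.0 to 99.3 in replicate 2. Including peaks without a partner, Tigger17a had 15 summits in replicate 1 with a median percentile of 87.7 and 25 in replicate 2 with a median of 47.9. The high median of Tigger17a in replicate 2 therefore belongs to the summits found in both samples. For Tigger7 the medians over all summits were 69.4 and 71.1, and for Tigger2 79.4 and 69.6. The strongest Tigger7 region lay in intron 5 of SEMA5A, a semaphorin gene, on chromosome 5 (9245356 and 9245340), with scores of 141 and 257.

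**Figure D4:**
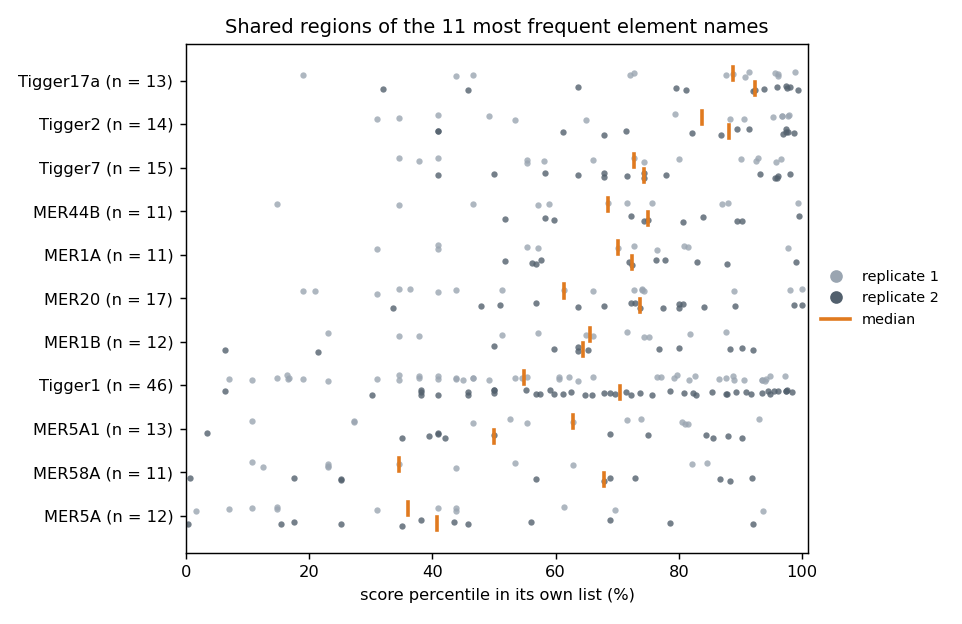
Score percentile (%) within its own list of each shared region of the 11 element names with at least 10 regions; light points are replicate 1, dark points replicate 2, orange lines medians, and points are spread vertically for legibility. Tigger17a lies highest (medians 88.8 and 92.4) and MER5A lowest in the mean of its medians (36.0 and 40.8), with wide overlap between names.

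Tigger1 was the most frequent name, with 46 regions, and part of them lay on unplaced sequences or within 1 Mb of satellite repeats, the long tandem repeats found at centromeres and elsewhere. Of the 46, 7 were on sequences with no position on a chromosome. These are called unplaced here, also where the chromosome itself is known. Another 7 lay within 1 Mb of a replicate 1 summit in satellite repeat, which gave 14 of 46 for both (30.4%, 19.1% to 44.8%). For 4 of the 7 on unplaced sequences there was no satellite summit on the same sequence, so a distance could be measured within 1 Mb for 10 of the 46. Of the other 405 regions, 8 did so (1.98%, 1.00% to 3.85%), and none of those was on an unplaced sequence. The distance of 1 Mb was chosen after the positions were seen. With 5 Mb in its place, and unplaced sequences still counted, the counts were 17 for Tigger1 and 25 for the others. In each list taken alone, paired or not, 10 of 51 Tigger1 summits in replicate 1 (19.6%) and 16 of 79 in replicate 2 (20.3%) had a satellite summit of the same list within 1 Mb, against 2.81% and 2.60% of other class DNA summits. With unplaced sequences added, the Tigger1 counts were 14 and 20. The 14 Tigger1 regions within 1 Mb or on unplaced sequences had a median percentile of 79.4 in replicate 1 and 86.5 in replicate 2, and the 32 elsewhere had 46.6 and 65.3. The ranges overlapped, from 14.7 to 97.2 and from 6.94 to 94.2 in replicate 1. The 8 other regions near satellites had lower medians, 42.2 and 29.4. The Tigger1 region with the lowest rank sum was on an unlocalised sequence of chromosome 14 (98288 and 98278), with scores of 156 and 278. The part of near-identical copies of such sequence in these scores was not tested. Away from satellites, Tigger1 regions included intron 5 of KDM4C on chromosome 9 (6874051 and 6874054), a histone demethylase gene, with scores of 97.1 and 173. That region was singled out after its values were seen, because a Tigger17a region lay in intron 1 of the same gene (6781652 and 6781676) with scores of 131 and 225.

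**Figure D5:**
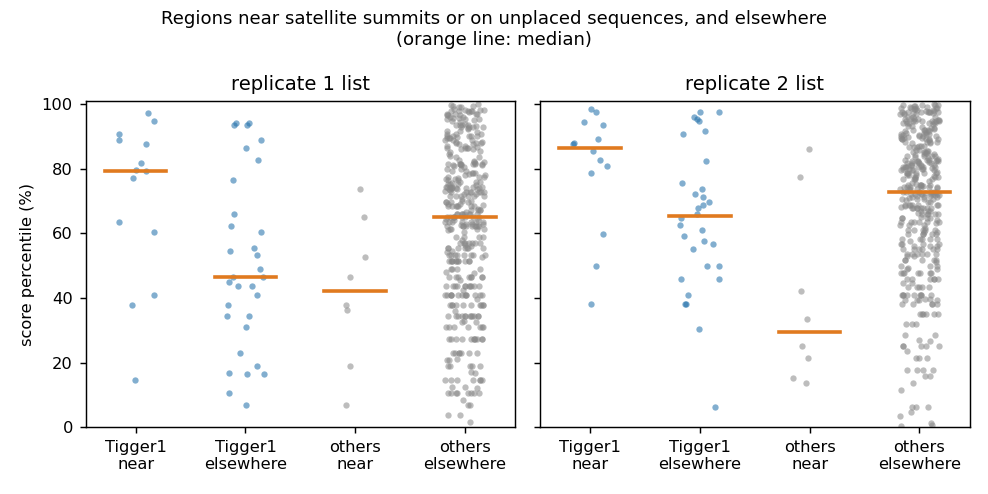
Score percentile (%) of Tigger1 regions (blue) and all other regions (grey) near satellites or on unplaced sequences and elsewhere, in each list; points are regions and orange lines medians. Tigger1 regions near satellites or on unplaced sequences have the highest medians (79.4 and 86.5), over ranges that overlap with the other groups.

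Among hAT-Charlie names, MER20 had most regions. MER20 is known from other work as a source of regulatory sequence in the endometrium. Its 17 regions had median percentiles of 61.4 in replicate 1 and 73.7 in replicate 2, with a range from 19.0 to 100.0 and from 33.6 to 100.0. The 2 strongest, described above, were the ones in the top 10% of either list, and the third, in an intron on chromosome 15, had scores of 65.2 and 82.4. MER20 summits recurred less often than those of Tigger1. Of 32 in replicate 1, 17 had a partner (53.1%, 36.4% to 69.1%), against 46 of 51 for Tigger1 (90.2%, 79.0% to 95.7%). In replicate 2 the shares were 37.3% of 51 and 63.3% of 79. These shares also rest on the pairing that chose the regions. Over all its summits, MER20 had median percentiles of 39.4 and 40.0, beside 49.1 and 55.2 for Tigger1. MER1B recurred at a share of 44.4% in replicate 1 and MER5A at 54.5%. MER5A had medians of 36.0 and 40.8 over its 12 regions. MER58A had medians of 34.5 and 67.9 over 11 regions, and the median difference within a region was 14.4 percentile points, beside 10.1 for MER20 and 9.08 for Tigger1. MER5A1 was the name among these 11 whose percentile was more often lower in replicate 2, at 8 of 13 regions, with medians of 62.9 and 50.0. Its strongest region was on chromosome 3 (107970327 and 107970333), 87122 bp from the start of LINC00636, with scores of 93.5 and 90.4.

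The small families showed some of the higher values. The 11 regions of family DNA comprised 8 UCON8, 2 MER130 and 1 Eulor9C, and 3 of them were in the top 10% of both lists. Their median percentiles were 73.1 and 80.8, and the percentile was higher in replicate 2 at each of the 11, beside 362 of all 451 regions. Those regions also lay far from start sites, at a median of 91394 bp. The 8 regions of hAT-Ac were all OldhAT1, with medians of 77.6 and 83.8 and no percentile under 47.8 in replicate 1. The strongest of them lay in an intron of IGFBP7 on chromosome 4 (57099165 and 57099184), which encodes a secreted protein that binds insulin-like growth factors, with scores of 80.4 and 146, and was named after its values were seen. TcMar-Mariner held 5 HSMAR2, 5 MARNA and 1 HSMAR1, and none of the 11 was in the top 10% of both lists. The HSMAR1 region on chromosome 15 (62219972 and 62219954) had the lowest rank sum of the family, with scores of 69.4 and 120. In hAT-Blackjack, 7 of 14 replicate 1 summits had a partner, and MER63A and MER63B supplied the 2 regions in the top 10% of both lists.

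The distance between summits was limited to 200 bp by the pairing, so the distances describe paired summits alone and leave out the 170 replicate 1 summits without a partner. The median distance between paired summits was 30 bp (95% interval from order statistics 26 to 33), and 321 of 451 pairs (71.2%) lay within 50 bp. The summits of 9 regions fell on the same base, and those of 40 were more than 100 bp apart. Shared regions outside the class, paired by the same rule, had a median of 28 bp. By family the median was 24.5 bp for TcMar-Tigger, 26 bp for hAT-Tip100 and 32 bp for hAT-Charlie. Among frequent names it was lowest for MER44B at 18 bp, with 10 of 11 pairs within 50 bp, and MER20 had 16 of 17 pairs within 50 bp with a median of 20 bp. All 8 Zaphod pairs lay within 50 bp, at a median of 12.5 bp. MER5B pairs were wider, at a median of 56 bp over 9 regions. Where within an element the summits fell could not be read, since no genome sequence or element coordinates were used here.

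In the deposited annotation 239 regions were intronic, 208 intergenic and 4 lay on sequences without gene annotation. The intronic share was 53.5% (48.8% to 58.0%) of those with a class. It was near the 54.5% of shared regions outside repeats, counted over introns and intergenic sequence alone. It was above the 36.9% (35.0% to 38.9%) of LTR regions, and below the 58.7% (55.6% to 61.7%) of SINE regions, with LINE regions at 50.4% (48.0% to 52.9%). Of the intronic regions, 75 (31.4%) were in intron 1, beside 32.0% of intronic regions outside repeats. The median distance to the nearest start site was 41082 bp (95% interval from order statistics 35258 to 47264), against 40853 bp outside repeats over the same annotation classes, 41680 bp for LTR elements and 30198 bp for SINEs. Within 10 kb of a start site lay 79 of 447 regions (17.7%), beside 16.2% outside repeats, and 3 lay within 1 kb. Those 3, named after their values were seen, were Charlie15b at YEATS2 (288 bp), UCON8 at ATL1 (868 bp) and Tigger6a at LINC00499 (919 bp). YEATS2 encodes a subunit of a histone acetyltransferase complex, and ATL1 encodes atlastin of the endoplasmic reticulum. None of the 3 was among the stronger regions, with scores of 4.55 and 17.3 at YEATS2, 15.0 and 31.1 at ATL1 and 15.8 and 22.1 at LINC00499.

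The regions were scattered over genes. They had 419 different nearest genes, and 236 intronic regions lay in 219 host genes, of which 15 held 2 or more. MACROD2 and SEMA5A, both very long genes, held 3 each. Neighbouring regions within 2500 bp of each other were found 3 times, and the neighbours below were named after their values were seen. In CPED1 on chromosome 7, 2 Tigger2 summits lay 1169 bp apart (121073000 and 121074169 in replicate 1), with replicate 1 scores of 61.5 and 36.3 and replicate 2 scores of 85.1 and 99.9. The other pairs joined 2 Tigger1 regions and a MER1B region near LOC102723780 on chromosome 22, with replicate 1 scores of 12.4, 8.54 and 8.54. At the carboxylesterase gene CES1 and its pseudogene CES1P1 on chromosome 16, 2 MER5A1 summits lay 10371 bp apart (55793328 and 55803699), with scores of 18.9 and 75.2 and of 28.1 and 59.4. As at STRC, these are duplicated genes, and the assignment of reads between copies was not tested.

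For 36 genes in a pigmentation list, 1 of the 451 regions (0.222%) had one of them as its nearest gene within 50 kb, beside 100 of all 22702 shared regions (0.440%). At these shares a count of 1 cannot be told from the background. None of the 451 lay so for 8 T-box genes and targets, beside 5 of all shared regions, or for 10 genes of pheomelanin and cysteine metabolism, beside 9. The single region was a MER45C element, of family hAT-Tip100, in intron 1 of TYR on chromosome 11 (89186452 and 89186566). TYR encodes tyrosinase, the enzyme that starts melanin synthesis, and the region lay 8580 bp downstream of its start. It had scores of 4.50 in replicate 1 and 12.2 in replicate 2 and the lowest replicate 1 score of the 7 shared regions assigned to TYR within 50 kb. The TYR promoter region, 24 bp upstream of the start, had scores of 71.4 and 120. A MER115 region of the same family had HPS1, a gene of melanosome biogenesis, as its nearest gene at 63652 bp, outside the 50 kb limit. That region lay in intron 9 of HPSE2, and its replicate 2 summit, 142 bp away, was annotated to a LINE.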

How the data were processed

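Each ChIP sample had a peak list of its own, so replicates were not pooled. Per the file headers, summits were annotated with annotatePeaks.pl (HOMER) against hg38, and each entry is a single base. The deposited score has no stated scale and was used only within its list. The submitters' processing notes name FastQC 0.11.7, cutadapt 2.8, Bowtie2 2.3.5, MACS2 2.1.2 and SAMtools 1.9, with no parameters. Read depth is unknown, so no value could be scaled to it, and intervals cover counting error only. Reads that map to several repeat copies may have been placed or dropped, and which was done is not given in the sources used here.

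Groups came from the sample titles. Summits were paired when mutually nearest within 200 bp, which was tested on simulated data. The simulated summits were widely spaced with partners well inside that distance, so dense summits and partners near it were not covered. Percentages carry 95% Wilson intervals and medians order-statistic intervals. With 1 condition no test was made. The members and lists were chosen with earlier results of these data known. Regions named in full were the 15 with the lowest rank sum, the one with the lowest in each family of at least 10 and in the 5 most frequent names (6 with a tie), and those within 50 kb of a listed gene. Any other region in the text was named after its values were seen. The planned motif search around every summit needs a genome, which was not used here, so 2 promoter windows were searched instead. Start sites implied by the deposited distances lay within 1000 bp of the RefSeq ones for 94.0% of 13554 shared regions. Python 3.11.15, pandas 2.3.3 and SciPy 1.17.1 were used.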

Additional observations from a re-analysis of the deposited data

How the results depend on the processing

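Over 10 alternative settings 91 values were computed, of which 72 stayed within the interval of the reported value or, for counts, within 1.5 times. The cause of a move was not tested unless the setting itself shows it. With pairing within 100 bp, a partner was found for 66.2% of class DNA summits of replicate 1 and 48.0% of replicate 2, and within 500 bp for 77.0% of replicate 1. With scores at or above each list's median, which keeps fewer peaks, there were 280 regions, the median percentiles were 75.8 and 82.8, the median summit distance was 25 bp, and 86.4% and 64.9% had a partner. Requiring class DNA in both lists gave 1.74% of shared regions and a partner for 63.6% of replicate 1 summits. Using 1 list without pairing gave 621 summits in replicate 1 and 887 in replicate 2. Their shares of the list were 1.91% and 2.19%, TcMar-Tigger held 37.0% and 37.5%, hAT-Charlie 40.1% and 40.7%, the median percentile was 51.4 and 50.0, and the median distance to a start site was 39454 and 43112 bp. Leaving out every shared region in or near satellites or on unplaced sequences, chosen after seeing the data, gave 2.34% of the shared regions that remain. Widening the distance to satellites to 5 Mb, also chosen afterwards, raised the count outside Tigger1 from 8 to 25. The motif search around every summit and the position of summits within elements were not run, because no genome sequence was used here. No paired analysis was possible because the groups that share replicate numbers are ChIP and input, and no input values were used.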

Other observations

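Regions whose class carries a question mark (DNA?) were left out above, and 6 of them were shared. Their names are Eulor6B, Eulor6D, Eulor12, UCON14, MER131 and MER124, which are mostly very old repeats. Their median percentiles were 91.1 in replicate 1 and 92.1 in replicate 2. The strongest was Eulor6B on chromosome 7 (115191548 and 115191553), 39807 bp from the start of LINC01392, with scores of 153 and 292. UCON14 on chromosome 2 (136174358 and 136174304) had CXCR4, a chemokine receptor gene, as its nearest gene, at a signed distance of -56203 bp from the start, with scores of 32.0 and 86.4.

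Class DNA summits without a partner were mostly weak. The 170 in replicate 1 had a median percentile of 19.0 and the 416 in replicate 2 a median of 28.7. The exception with the highest score in replicate 1 was a MER135 element on chromosome 6 (51496381) with a score of 120. In replicate 2 the highest were MER33 near EVPL on chromosome 17 (76030000) with 186 and MER44B near IL24 on chromosome 1 (206890949) with 165.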
